A study of Mus musculus with 24 samples.

Results

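The Gnas and Nespas imprinted locus was taken as all 100 bp tiles of the 3 deposited methylation tables between 5 kb upstream of the first transcription start and the last annotated end of the mouse genes Gnas and Nespas. On mm10 this is chr2:174279320-174346744, an interval of 67.4 kb. RefSeq places Gnas on the plus strand at chr2:174284320-174346744 with 23 transcripts, of which 12 are curated, and Nespas (listed there as Gnasas1) on the minus strand at chr2:174281237-174295436 with 1 transcript. The interval held 109 tiles in at least 1 table. The liver table listed 97 of them among its 819713 tiles. In the brain table there were 107 among 942643, and in the heart table all 109 among 930358. A total of 96 locus tiles were present in all 3 tables, which shared 758685 tiles.

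The samples were enhanced reduced representation bisulphite sequencing (RRBS) libraries of untreated, isogenic C57BL/6J mice aged 24 weeks, a wild-type inbred strain with no engineered allele. RRBS digests DNA at a CG-containing site, selects short fragments and reads cytosine methylation after bisulphite conversion, so CpG-dense fragments are enriched. There were 12 liver libraries (6 male and 6 female by label), 6 brain libraries and 6 heart libraries (3 male and 3 female each). Each library came from a piece of the organ (the tip of 1 liver lobe, a front slice of brain, the apical part of the heart), and brain and heart were taken from mice that also gave liver. The columns of the tables are numbered and name neither mouse nor gender, so males and females could not be compared here and tissues of the same mouse could not be matched. Each tissue has its own table, filtered on its own, so a difference between tissues cannot be told apart from a difference between tables. Tissue identity could not be checked against marker expression, since only methylation was measured. A level in a piece of tissue is a mean over its cell types, and a changed mix of cells and a changed level within a cell cannot be told apart.

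Gnas is a textbook imprinted gene with several promoters that join different first exons to shared downstream exons. Nesp encodes the neuroendocrine secretory protein NESP55 and is expressed from the maternal allele, with its promoter methylated on the paternal one. Gnasxl, which encodes the large G protein variant XLαs, the antisense transcript Nespas and the untranslated exon 1A transcript are expressed from the paternal allele, and their promoters are methylated on the maternal one. The Gsα promoter drives the stimulatory G protein alpha subunit that couples hormone receptors to adenylyl cyclase, is unmethylated on both alleles, and is expressed mainly from the maternal allele in only a few tissues. A CpG that is methylated on 1 parental allele in every cell gives a level midway between none and full methylation, but the tables do not separate the alleles.

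The starts, in order along the plus strand, were Nesp at chr2:174284320-174284320, Nespas at chr2:174295436-174295436, Gnasxl at chr2:174297859-174297859, exon 1A at chr2:174327749-174327768 and Gsα at chr2:174330006-174330006. Gnasxl starts 2.4 kb from Nespas on the opposite strand, and Gsα starts 2.3 kb after exon 1A. The tiles below are examples from each promoter and from the tissue differences, none of them in an untranslated region of a RefSeq mRNA. Levels are not given here for all of these tiles. Each is 1 tile of the mm10 plus strand, read 5′ to 3′ from the RefSeq genome sequence (GRCm38.p6), with the CG dinucleotides that RRBS can score in capitals.
Nesp, first tile upstream of the start, chr2:174284201-174284300: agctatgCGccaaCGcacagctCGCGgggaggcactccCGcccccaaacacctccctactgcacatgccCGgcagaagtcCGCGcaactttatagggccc
Nesp, coding exon 2, listed at 0 in brain and heart, chr2:174284901-174285000: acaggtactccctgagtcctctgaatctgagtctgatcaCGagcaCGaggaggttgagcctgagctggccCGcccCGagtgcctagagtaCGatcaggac
Nespas, upstream of its start, chr2:174295501-174295600: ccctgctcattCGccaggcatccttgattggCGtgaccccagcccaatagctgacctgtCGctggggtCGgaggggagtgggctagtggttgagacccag
Gnasxl, upstream, chr2:174297001-174297100: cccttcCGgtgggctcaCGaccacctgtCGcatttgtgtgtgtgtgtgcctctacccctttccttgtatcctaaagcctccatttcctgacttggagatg
Gnasxl, coding first exon, chr2:174299901-174300000: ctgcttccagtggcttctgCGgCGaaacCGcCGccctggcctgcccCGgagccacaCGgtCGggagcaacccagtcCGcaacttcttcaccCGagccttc
Exon 1A, intron after the first exon, chr2:174328001-174328100: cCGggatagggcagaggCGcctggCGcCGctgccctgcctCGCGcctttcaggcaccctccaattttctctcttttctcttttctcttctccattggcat
Gsα, intron 1, chr2:174330601-174330700: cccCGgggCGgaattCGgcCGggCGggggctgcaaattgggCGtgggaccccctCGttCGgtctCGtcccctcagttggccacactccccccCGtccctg
Gsα, intron 2, first tissue-variable tile, chr2:174334501-174334600: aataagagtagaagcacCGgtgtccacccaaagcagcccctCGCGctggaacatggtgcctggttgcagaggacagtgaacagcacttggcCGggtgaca
Gsα, intron 2, second tissue-variable tile, chr2:174336001-174336100: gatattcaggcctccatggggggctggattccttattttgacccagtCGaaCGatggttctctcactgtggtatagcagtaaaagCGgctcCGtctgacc

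The tiles of the locus held between 1 and 19 CpGs, with a median of 5. Tiles within 1000 bp of the Gsα start were the richest, with a median of 11 CpGs and a median GC content of 77.0%. The exon 1A window had a median of 9.5 CpGs per tile and the Nesp and Gnasxl windows 6.5 and 6. In contrast, the 12 tiles further into the Gsα gene body had a median of 2.5 CpGs and 50% GC.

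Levels across the locus were concentrated around the middle of the scale in each tissue. The tissue level of a tile is the mean of its libraries. In liver, 60 of 97 locus tiles (61.9%) had a level between 30 and 70%, against 16.8% of all liver tiles. The same range held 63 of 107 tiles (58.9%) in brain, against 19.7% of all brain tiles, and 65 of 109 (59.6%) in heart, against 26.0% of all heart tiles. The median locus tile stood at 43.1% in liver, 37.2% in brain and 36.5% in heart, whereas the medians over all tiles were 81.3, 80.3 and 72.9%. Neighbouring tiles share fragments and were not counted as independent, so these shares are descriptions without a test.

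**Figure D1:**
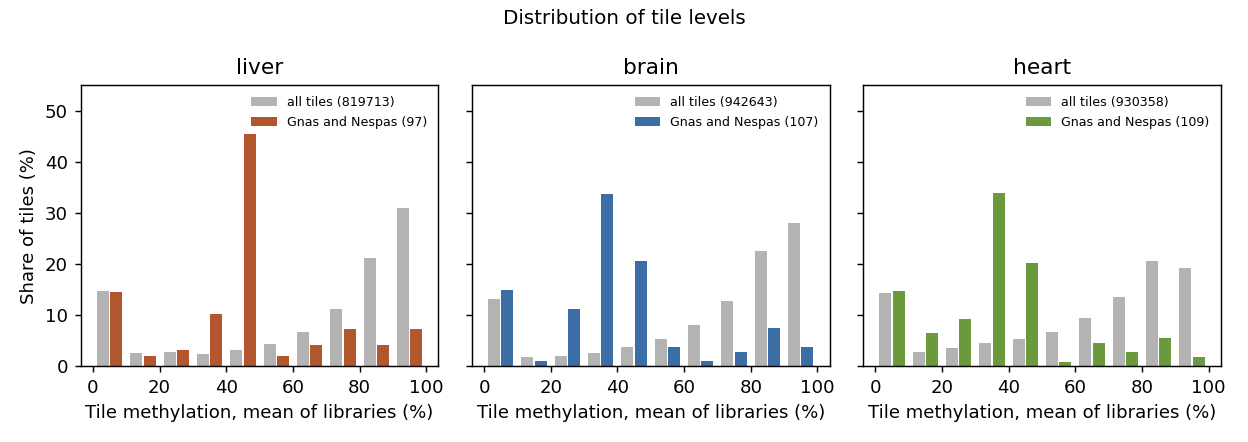
Share of tiles (%) in each 10-point bin of tissue mean methylation (%), for all tiles of the table (grey) and for the tiles of Gnas and Nespas (colour), with the number of tiles in the key. In liver 44 of the 97 locus tiles fall between 40 and 50%, and in brain and heart the fullest bin is 30 to 40%, with 36 and 37 tiles.

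Of the 96 tiles in all 3 tables, 51 (53.1%) lay between 30 and 70% in each tissue, against 6.66% of the 758685 shared tiles. Across those 51 tiles the highest and the lowest tissue mean were a median of 5.6 points apart, compared with 17.5 points for the 50549 such tiles over all. The liver mean was the highest of the 3 in 41 of the 51, the brain mean in 4 and the heart mean in 6. Over all such tiles liver was the highest in 20336, brain in 25926 and heart in 4287. The spread between libraries at the locus tiles in this range was also modest, with a median SD of 6.48 points for liver, 5.59 for brain and 6.20 for heart. All tiles in the range had 8.27, 9.33 and 7.14 points.

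**Figure D2:**
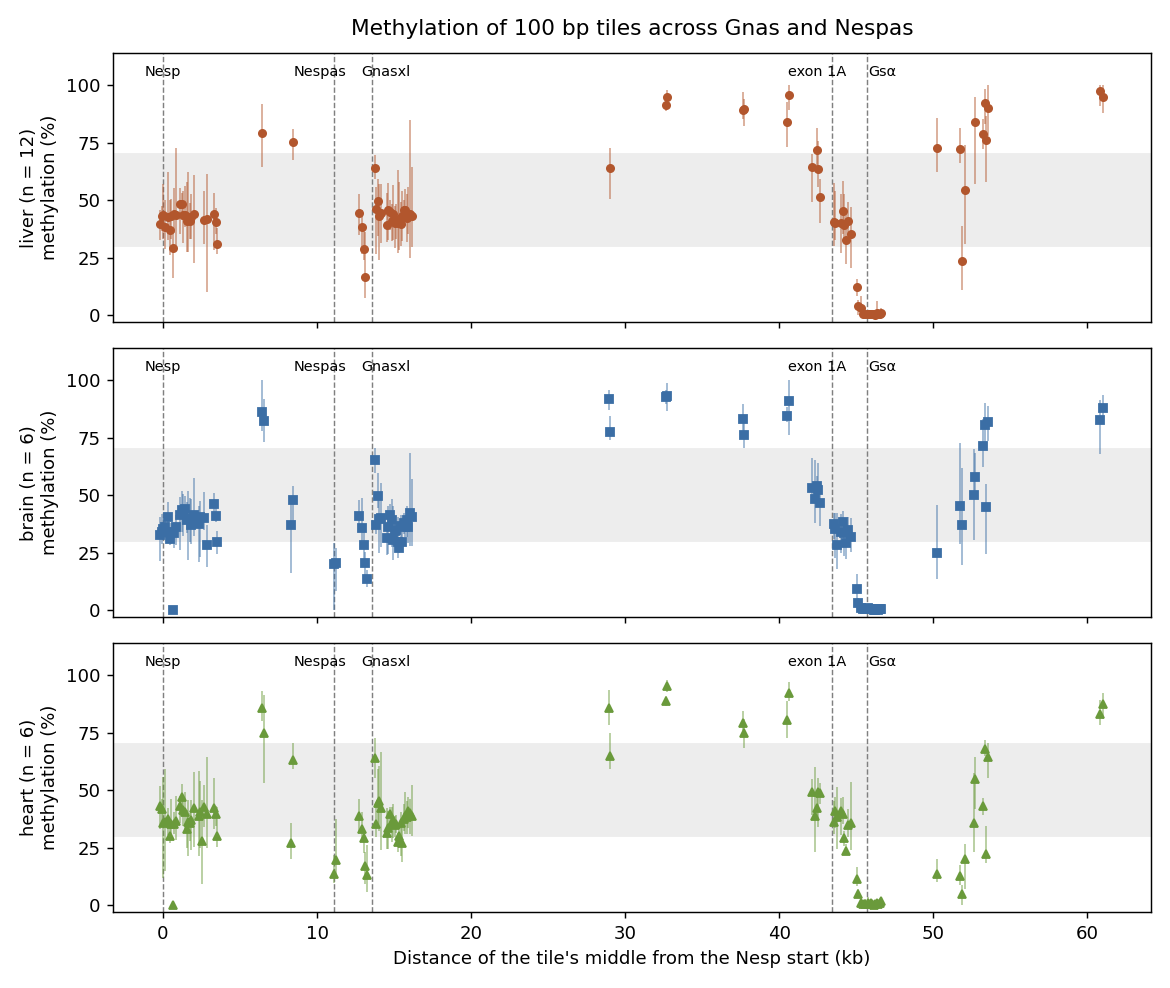
Methylation (%) of each tile against the distance of its middle from the Nesp start (kb), by tissue; points are means over libraries, vertical lines run from the lowest to the highest library, dashed lines mark the 5 starts and the grey band is 30 to 70%. Levels near the middle of the scale lie at Nesp, Gnasxl and exon 1A, levels near 0 at Gsα, and levels that differ between tissues to the right of Gsα.

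Tissues were compared tile by tile with limma's moderated test on the fractions, fitted over all 758685 shared tiles. A difference was called at a Benjamini-Hochberg adjusted p below 0.05 and a size of at least 10 points. Of the 96 locus tiles, 17 were called higher in liver than in brain, where 14.5% of all shared tiles are called in that direction, and 2 higher in brain than in liver, where 13.0% of all are. Against heart, 22 were called higher in liver (26.0% of all tiles) and 0 higher in heart (5.75% of all), with 0 of the locus tiles higher in heart at an unadjusted p below 0.05 either. Between brain and heart, 9 were called higher in brain (25.9% of all tiles) and 2 higher in heart (6.26% of all). The median difference over the locus was 3.63 points for liver minus brain, 4.84 for liver minus heart and 0.07 for brain minus heart, beside 0.28, 3.50 and 3.00 points over all shared tiles. The mean level of a whole library was 65.7 to 67.0% in liver, 65.4 to 68.2% in brain and 61.0 to 61.8% in heart, so heart was lower over the whole table as well, and the part of this in the locus differences was not tested.

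To compare promoters, each start was given a window of 1000 bp to either side, with each tile going only to its nearest start. The level of a library was the mean of the window's tiles. The same limma test and call were used, fitted over all 15281 promoter windows with at least 3 shared tiles. Nesp, Gnasxl, exon 1A and Gsα could be tested. The Nespas window held only 2 tiles, neither in the liver table, and was not tested. None of the 4 tested windows was called in any of the 3 comparisons. Over all windows, 9.33% were called between liver and brain, 9.28% between liver and heart and 8.51% between brain and heart. At an unadjusted p below 0.05, limma gave 3 of the 4 windows between liver and brain, 3 between liver and heart and 0 between brain and heart, and no other tool was run. Without the minimum size, Nesp and exon 1A passed in both comparisons with liver and 0 windows passed between brain and heart, where 46.6, 43.4 and 28.6% of all windows pass on the adjusted p alone.

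**Figure D3:**
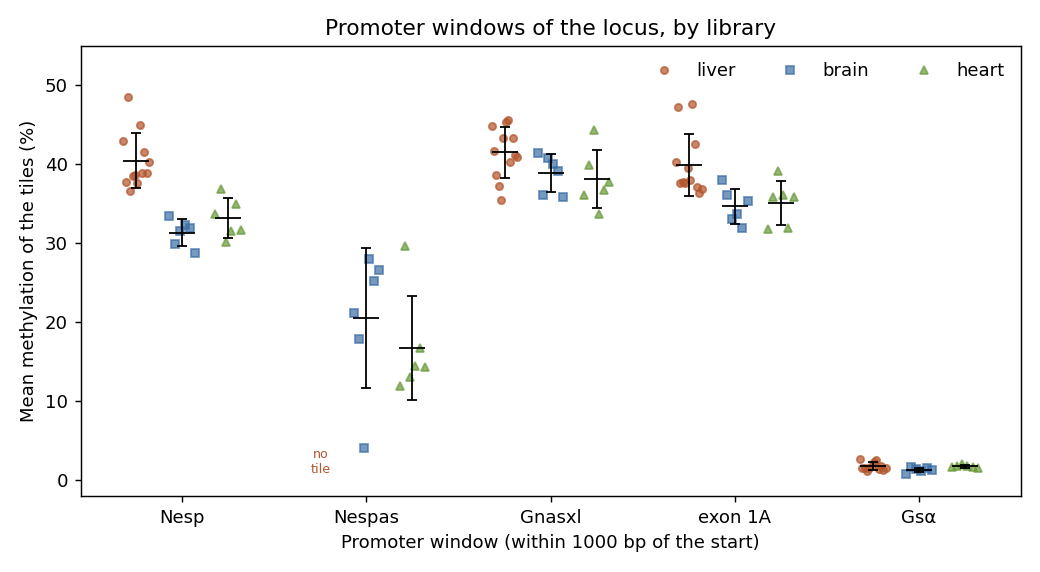
Mean methylation (%) of the tiles in each promoter window, 1 point per library, for liver (n = 12), brain (n = 6) and heart (n = 6), with the mean and SD in black. Nesp, Gnasxl and exon 1A lie between 28.8 and 48.5% in every library, Gsα at or below 2.70%, and the Nespas window has no liver tile.

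Nesp is the first promoter of the locus. Over the 10 tiles of its window, the level in liver ranged from 36.6 to 48.5% with a median of 39.0% (mean 40.5% ± 3.49, SD, n = 12). In brain it ranged from 28.8 to 33.5% with a median of 31.8% (31.4% ± 1.71, n = 6), and in heart from 30.2 to 37.0% with a median of 32.7% (33.2% ± 2.52, n = 6). All brain libraries were below all liver libraries, whereas the heart and liver ranges overlapped at their edges. Liver exceeded brain by 9.11 points (95% interval 6.11 to 12.1, limma adjusted p = 7.15e-06) and heart by 7.26 points (4.27 to 10.3, adjusted p = 0.000161). Brain and heart differed by -1.84 points (interval -5.30 to 1.61, adjusted p = 0.497). With a window of 500 bp the differences from liver were smaller, at 5.78 points for brain (1.66 to 9.90, limma adjusted p = 0.0252) and 3.26 points for heart (-0.86 to 7.38, adjusted p = 0.257).

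Part of the Nesp difference came from a single tile, chr2:174284901-174285000, in the coding exon 2. The liver libraries ranged there from 16.2 to 38.0% with a median of 32.4% (mean 29.3% ± 7.53, n = 12), while all 6 brain and all 6 heart libraries were listed at exactly 0.0. Liver exceeded each of the other tissues by 29.3 points (SE 2.52, limma adjusted p = 2.9e-10 against brain and 3.1e-10 against heart). The tile directly downstream, chr2:174285001-174285100, had 27.0 to 37.8% in brain and 31.0 to 40.5% in heart, so the value of 0 was limited to 1 tile. Among the 758685 shared tiles, 334 were at 0 in every brain and heart library, and 42 of these had a liver level of at least 20%. The coverage of the tile is unknown, and whether the zeros come from the reads or from the making of the tables was not tested. Without this tile the Nesp window stood at 41.7% ± 3.54 in liver, 34.8% ± 1.90 in brain and 36.9% ± 2.80 in heart, and the differences from liver were 6.86 and 4.81 points.

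The tile at the Nesp start itself, chr2:174284301-174284400, covers the first exon of the Nesp transcript. It ranged from 33.3 to 57.1% in liver (median 42.3%), from 30.7 to 38.5% in brain (median 36.1%) and from 12 to 55.6% in heart (median 40.1%). The heart libraries spread more widely than those of the other tissues, with an SD of 14.9 points against 6.53 in liver and 2.93 in brain. The highest level in the window as a mean of the 3 tissues, though not in liver or heart alone, was at chr2:174284601-174284700, coding exon 2 of Nesp and exon 3 of Nespas, with 42.7% ± 9.34 in liver, 40.7% ± 4.12 in brain and 37.7% ± 4.34 in heart. No pair of tissues differed at either tile by limma (adjusted p between 0.14 and 0.96 at the first and between 0.27 and 0.70 at the second).

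Levels near the middle of the scale ran on for 3.8 kb, from chr2:174284101 to chr2:174287900. In liver 23 of the 24 tiles in this stretch lay between 30 and 70%, in brain 23 of 26 and in heart 25 of 27. The median tile had 42.7% in liver, 38.4% in brain and 37.7% in heart. Of the 24 tiles tested, 2 were called higher in liver than in brain (14.5% of all shared tiles) and 1 higher in liver than in heart (26.0% of all). The most upstream tile was called higher in heart than in brain (6.26% of all). The next tiles, in the Nesp intron and the Nespas gene body, left this range: chr2:174290701-174290800 stood at 79.2% in liver, 86.1% in brain and 85.8% in heart. Further on, chr2:174292701-174292800 had 75.3% in liver, 47.8% in brain and 63.3% in heart, and each pair of tissues was called there.

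The Nespas promoter was seen through 2 tiles in brain and heart. The tile that holds the start, chr2:174295401-174295500, in the first Nespas exon, ranged in brain from 0.0 to 29.3% with a median of 23.0% (mean 20.4% ± 10.9, n = 6) and in heart from 9.5 to 21.9% with a median of 12.5% (13.6% ± 4.42, n = 6). The tile upstream of it, chr2:174295501-174295600, ranged from 8.3 to 27.1% in brain (median 22.8%) and from 13.0 to 37.5% in heart (median 17.0%). The ranges of the tissues overlapped at both tiles. Over the 2 tiles the window stood at 20.5% ± 8.87 in brain and 16.7% ± 6.56 in heart, in both tissues below the means of the Nesp, Gnasxl and exon 1A windows.

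Between Nespas and Gnasxl, whose starts point away from each other, levels fell towards the Gnasxl start. The tile at chr2:174297001-174297100 had 44.5% in liver, 40.9% in brain and 39.0% in heart, and the next ones, at chr2:174297201-174297300 and chr2:174297301-174297400, had 38.3, 35.7 and 33.3% and then 28.8, 28.4 and 29.2%. The lowest shared tile of the Gnasxl window followed at chr2:174297401-174297500, with 7.7 to 36.1% in liver (median 16.7%), 15.2 to 25.5% in brain (median 21.1%) and 9.1 to 23.4% in heart (median 17.1%). The tissues overlapped there (limma adjusted p between 0.34 and 0.96). The tile after it, not in the liver table, had 13.7% in brain and 13.4% in heart.

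On the other side of the start, the tile nearest to it, chr2:174298001-174298100 in the first exon of Gnasxl, was the highest of the window. It ranged from 59.2 to 69.8% in liver with a median of 64.2%, from 59.9 to 70.8% in brain with a median of 66.1%, and from 55.2 to 72.6% in heart with a median of 64.5%. The 3 tissue means lay within 1.42 points of each other (adjusted p between 0.75 and 0.99), and in each tissue no other tile of the exon had a mean as high. The Gnasxl window as a whole averaged 41.5% ± 3.22 in liver (35.5 to 45.6%, median 41.4%), 38.9% ± 2.37 in brain (35.9 to 41.4%, median 39.6%) and 38.1% ± 3.66 in heart (33.8 to 44.4%, median 37.3%). The ranges overlapped for each pair of tissues. The liver window was higher than brain by 2.62 points (interval -0.58 to 5.83, limma adjusted p = 0.175; 1.5 points with a window of 500 bp) and higher than heart by 3.38 points (0.18 to 6.59, adjusted p = 0.0845).

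The large first exon of Gnasxl and the start of the intron after it carried 22 tiles from chr2:174298001 to chr2:174300500, all 22 of them between 30 and 70% in liver and 19 of them in brain and in heart. The median tile had 43.5% in liver, 36.8% in brain and 37.3% in heart. Here 4 tiles were called higher in liver than in brain (14.5% of all shared tiles) and 5 higher in liver than in heart (26.0% of all), shares not far from those over all tiles. Between brain and heart 0 were called, where 25.9% of all shared tiles are called higher in brain and 6.26% higher in heart. The tile chr2:174299601-174299700, which lies in the same exon as the coding sequence shown for Gnasxl, had 28.5 to 57.9% in liver (median 41.4%), 24.8 to 30.8% in brain (median 27.1%) and 25.5 to 34.6% in heart (median 29.6%). Its liver mean exceeded brain by 14.8 points (SE 3.18, limma adjusted p = 0.00044) and heart by 12.2 points (SE 3.18, adjusted p = 0.0025), although the lowest liver libraries reached into both other ranges.

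The long intron between Gnasxl and exon 1A was mostly highly methylated. Its 8 tiles from chr2:174313201 to chr2:174325000 had means from 76.1 to 93.3% in brain and from 65.1 to 95.5% in heart, and the 7 of them in the liver table had 63.9 to 95.9%. At chr2:174313301-174313400, with 63.9% in liver, 77.7% in brain and 65.1% in heart, brain exceeded liver by 13.8 points (SE 3.13, limma adjusted p = 0.00079). Closer to exon 1A, 4 shared tiles lie in the window of Gm30189, a non-coding gene on the minus strand that starts 0.4 kb upstream of exon 1A. They averaged 63.0% ± 3.70 in liver (57.2 to 68.4%), 51.6% ± 3.04 in brain (49.2 to 57.5%) and 47.3% ± 2.68 in heart (43.5 to 50.1%). This window, not itself a member of the locus, was called between liver and brain (11.4 points, adjusted p = 1.71e-06) and between liver and heart (15.7 points, adjusted p = 8.47e-09).

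Exon 1A is the first exon of a transcript without an encoded protein, and a curated Gnas mRNA also begins in it. The exon 1A promoter is the control region of Gsα imprinting. All 7 shared tiles of its window lie downstream of the start, since the tiles upstream were nearer to the Gm30189 start. Over these tiles, liver ranged from 36.4 to 47.7% with a median of 37.9% (mean 39.9% ± 3.94, n = 12). Brain ranged from 31.9 to 38.1% with a median of 34.5% (34.7% ± 2.24, n = 6), and heart from 31.8 to 39.2% with a median of 35.9% (35.1% ± 2.81, n = 6). Liver overlapped with both, though its mean was higher than brain by 5.20 points (interval 1.85 to 8.56, limma adjusted p = 0.00973) and than heart by 4.78 points (1.43 to 8.14, adjusted p = 0.0184). These differences are below the minimum size and do not count as called. Brain and heart differed by -0.42 points (-4.30 to 3.45, adjusted p = 0.914).

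Within the window, the tile nearest the start, chr2:174327801-174327900, had 40.5% ± 7.38 in liver, 37.4% ± 4.36 in brain and 36.3% ± 5.45 in heart. As a mean of the 3 tissues, the highest of the shared tiles was chr2:174328401-174328500, with 45.4% ± 6.16, 38.2% ± 5.33 and 39.6% ± 4.39, although in heart chr2:174327901-174328000 was higher, at 41.2%. The lowest by the same mean, chr2:174328601-174328700, held 13 CpGs and ranged from 22.3 to 44.9% in liver (median 33.7%), from 22.5 to 36.4% in brain (median 29.6%) and from 21.9 to 26.7% in heart (median 22.7%). Liver was higher than heart there by 8.80 points (SE 2.55, limma adjusted p = 0.0057), under the minimum size.

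The intermediate levels of exon 1A ended between exon 1A and Gsα. The last tile in the range, chr2:174328901-174329000, whose middle lies at -1055 bp from the Gsα start, had 35.4% ± 7.93 in liver, 32.0% ± 5.44 in brain and 35.9% ± 12.1 in heart. The next tile in the tables, chr2:174329301-174329400, had 12.4% ± 2.81 in liver (8.3 to 15.7%), 9.43% ± 3.93 in brain (4.9 to 15.9%) and 11.7% ± 3.16 in heart (8.4 to 16.5%). In each tissue the highest library of this tile was below the lowest library of the tile before it. The following tile, chr2:174329401-174329500, was at 3.9, 3.3 and 4.8%. Levels therefore fell over a short distance, at the same tiles in the 3 tissues, and no tile of the Gsα window passed the test between tissues. Of the 15 tested, limma gave 0 at an unadjusted p below 0.05 in each of the 3 comparisons, and the largest difference was 2.97 points. At an adjusted p below 0.05 it also gave 0. Of the 758685 shared tiles, 302635 passed that limit for liver against brain, 361381 for liver against heart and 325951 for brain against heart. Means were below 2% in 12 of the 15 tiles in liver and 13 in brain and in heart, which leaves little room for a difference.

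**Figure D4:**
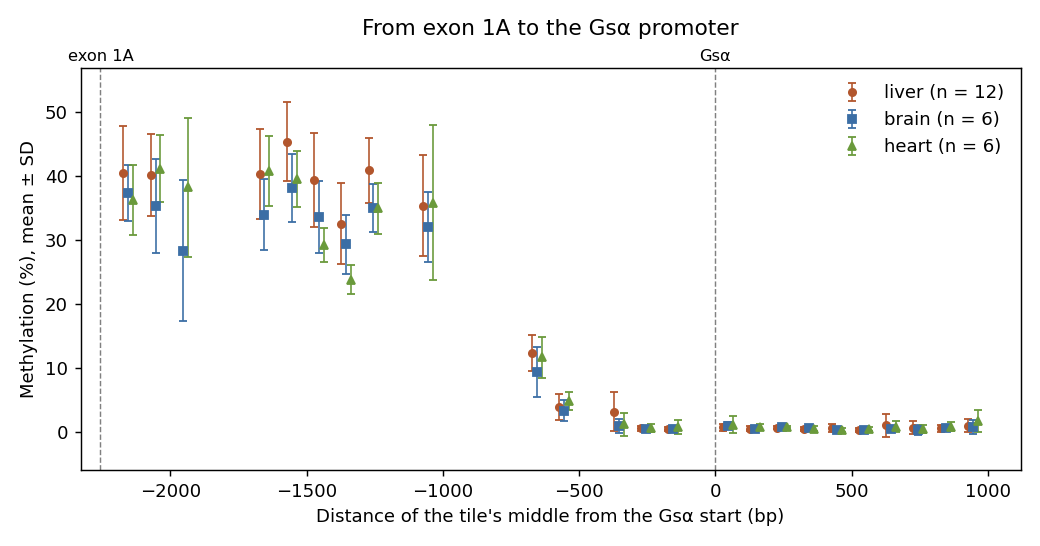
Methylation (%, mean ± SD over libraries) of the tiles against the distance of their middle from the Gsα start (bp), for liver (n = 12), brain (n = 6) and heart (n = 6), slightly offset sideways; dashed lines mark the exon 1A and Gsα starts. The level drops between the tile at -1055 bp, with 32.0 to 35.9%, and the tiles near the start, at about 1%.

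At the Gsα promoter itself methylation was close to absent. The tile that holds the start, chr2:174330001-174330100, with 17 CpGs, ranged from 0.0 to 1.5% in liver (median 0.6%), from 0.4 to 1.9% in brain (median 0.85%) and from 0.0 to 3.7% in heart (median 0.85%). The tile lowest as a mean of the 3 tissues, chr2:174330501-174330600 in intron 1, had means of 0.32% in liver, 0.25% in brain and 0.47% in heart. Of the 15 tiles of the window, 11 had a mean below 1% in liver, 13 in brain and 10 in heart. The window averaged 1.80% ± 0.48 in liver (1.22 to 2.70%), 1.33% ± 0.30 in brain (0.83 to 1.70%) and 1.79% ± 0.19 in heart (1.55 to 2.13%), and its differences between tissues lay between -0.46 and 0.47 points (limma adjusted p between 0.0732 and 0.967). With a window of 500 bp, which leaves out the tiles furthest from the start, the levels were 0.90, 0.60 and 0.75%. Depth is not known, so how far such low levels differ from 0 cannot be stated.

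Downstream of this promoter the levels differed between tissues. The introns 2 and 3 of Gsα held 8 tiles that were in all 3 tables, between chr2:174334501 and chr2:174337900. All 8 were called higher in liver than in heart, where 26.0% of all shared tiles are, and 7 were called higher in brain than in heart, where 25.9% of all are. Between liver and brain, 5 were called higher in liver (14.5% of all) and 1 higher in brain (13.0% of all). In 7 of the 8 the lowest liver library lay above the highest heart library. That was so in 13 of the 96 shared locus tiles (13.5%) and in 14.6% of all shared tiles. The order liver, brain, heart of the means held in 7 of the 8.

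The most upstream of these tiles, chr2:174334501-174334600 in intron 2, ranged in liver from 62.2 to 85.8% with a median of 73.1% (mean 72.8% ± 6.84, n = 12). In brain it ranged from 13.6 to 45.6% with a median of 22.7% (24.8% ± 11.9, n = 6) and in heart from 10.3 to 20.1% with a median of 12.6% (13.6% ± 3.41, n = 6). All liver libraries were above all others, whereas brain and heart overlapped. Liver exceeded brain by 48.0 points (SE 3.89, limma adjusted p = 9.1e-11) and heart by 59.2 points (SE 3.89, adjusted p = 1.9e-12).

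The tile chr2:174336001-174336100, in the same intron, had 66.4 to 81.4% in liver (median 71.7%), 28.8 to 72.8% in brain (median 40.5%) and 9.0 to 17.6% in heart (median 11.9%). Heart was separate from both other tissues, while 1 brain library reached the liver range. Liver exceeded heart by 59.3 points (SE 4.33, limma adjusted p = 1.4e-11), and brain exceeded heart by 32.6 points (SE 5.0, adjusted p = 7.9e-06).

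The tile next to it, chr2:174336101-174336200, was the only one of the 8 with brain above liver. It ranged from 11.2 to 39.0% in liver (median 20.9%), from 19.6 to 62.0% in brain (median 33.3%) and from 0.0 to 8.9% in heart (median 4.8%). Liver was lower than brain by 13.7 points (SE 5.26, limma adjusted p = 0.039), with wide overlap, and brain exceeded heart by 32.5 points (SE 6.08, adjusted p = 0.0001). The SD was 10.85 points in liver, 16.82 in brain and 3.33 in heart. The fit takes a shared spread for all tissues, and a test with separate spreads was not run. All heart libraries were below all others.

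In intron 3 of Gsα, chr2:174337501-174337600 ranged from 72.5 to 85.2% in liver (median 79.1%), from 62.3 to 83.1% in brain (median 69.6%) and from 39.4 to 46.8% in heart (median 43.8%). Brain exceeded heart by 28.2 points (SE 3.26, limma adjusted p = 1.2e-07), and the liver and brain ranges overlapped. The tile chr2:174337701-174337800, which lies in the last exon of a short Nesp transcript and holds a single CpG, ranged from 57.9 to 86.7% in liver (median 78.4%), from 24.6 to 54.8% in brain (median 50.5%) and from 18.3 to 34.7% in heart (median 19.9%). Liver was separate from both other tissues there and exceeded brain by 31.1 points (SE 4.44, adjusted p = 2e-06) and heart by 53.9 points (SE 4.44, adjusted p = 1.3e-10). At the far end of the gene, 2 tiles overlapped the edges of exons 7 to 9 of Gsα and lay mostly in the introns between these exons. They stood at 97.4 and 94.9% in liver, 82.6 and 88.2% in brain and 83.2 and 87.6% in heart.

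**Figure D5:**
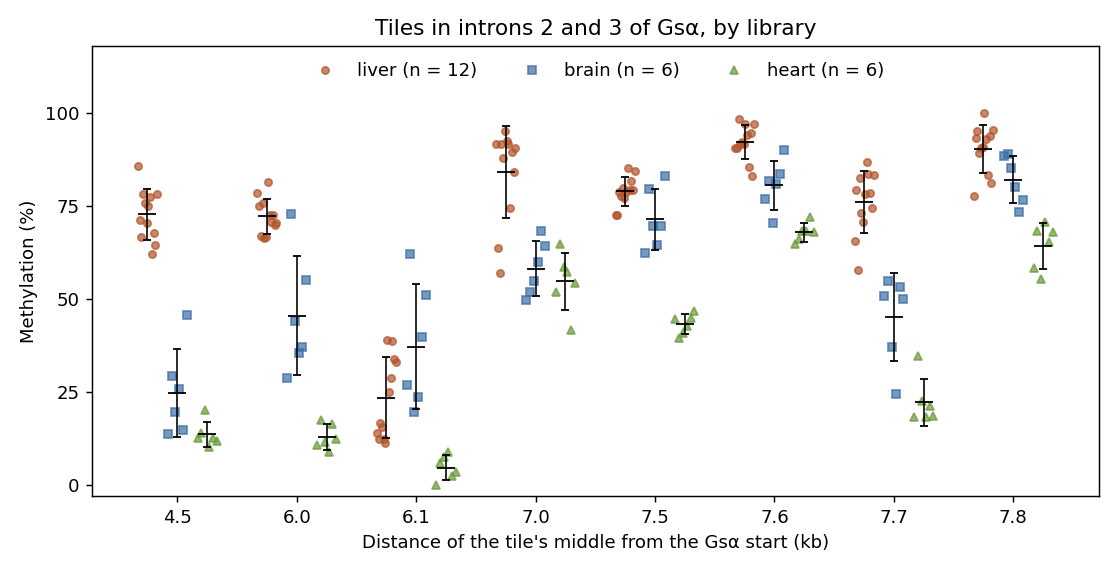
Methylation (%) of the 8 tiles in introns 2 and 3 of Gsα in each library of liver (n = 12), brain (n = 6) and heart (n = 6), ordered by the distance of the tile's middle from the Gsα start (kb, tiles evenly spaced, not to scale), with mean and SD in black. Heart has the lowest mean at each tile, and liver the highest at 7 of the 8.

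Promoters of other imprinted genes were summarised for comparison from a list of 14 genes known for maternal methylation at a promoter. Of these, 11 had at least 1 tested window, giving 13 windows. All tested starts of a gene were taken, whether or not the start is the maternally methylated one. Of the 13, 9 lay between 30 and 70% in each tissue, against 660 of all 15281 windows (4.32%). The median window of the list had 44.5% in liver, 38.7% in brain and 42.5% in heart. In 4 of the 13 windows liver and brain were called different, in 4 liver and heart, and in 1 brain and heart, beside 9.33, 9.28 and 8.51% of all windows. The windows called for both liver comparisons were those of Nnat, which encodes the membrane protein neuronatin, Nap1l5, a nucleosome assembly protein relative, and 1 window each of Mest, a hydrolase relative, and Inpp5f, a phosphoinositide phosphatase. Nnat had 64.0% in liver, 37.4% in brain and 49.3% in heart. Nap1l5 and the called window of Inpp5f were likewise highest in liver. The called window of Mest was lowest in liver, with 53.0% against 68.9% in brain and 76.7% in heart. Among the windows that were not called, some are named here after their values were seen. Airn, an antisense transcript, had 42.8, 38.7 and 36.0%. Snrpn, a splicing factor gene, had 44.5, 41.0 and 39.6%, and Plagl1, a zinc finger gene, 38.1, 35.1 and 36.3%. Grb10, with 4.2, 2.8 and 3.4%, and another window of Inpp5f, with 1.4, 2.5 and 3.0%, lay far below 30% in each tissue. Whether these windows hold the imprinted starts of the genes was not checked.

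Genes that act with Gsα were summarised too. Of 12 such genes (adenylyl cyclases, protein kinase A subunits and other partners), 11 had a tested window, and 1 of their 15 windows lay between 30 and 70% in each tissue. That was an alternative start of Adcy3, an adenylyl cyclase, with 42.2% in liver, 42.7% in brain and 45.2% in heart. The median window of this list was at 2.70, 0.97 and 1.63%, near the 2.94, 2.25 and 2.27% over all windows. Liver and brain were called different in 1 of the 15 windows, liver and heart in 2 and brain and heart in 1, which is near the 9.33, 9.28 and 8.51% of all windows. A start of Prkar1a, the regulatory subunit of protein kinase A, had 37.7% in liver against 13.4% in brain and 14.5% in heart, and Adcy6 had 95.6, 89.4 and 59.5%.

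The 5 promoter windows of other genes most like Gnasxl were found from the largest of the differences in the 3 tissue means and the 3 SDs. They were Gabrd, Fcor, Jph4, Cxcl3 and Aifm3, at most 1.88, 2.16, 2.16, 2.22 and 2.26 points away. None of the 5 is on the list of imprinted genes, so windows with tissue means and SDs within 2.26 points of those of Gnasxl are not limited to that list. Gabrd, which encodes the delta subunit of the receptor for the neurotransmitter GABA, had 39.9% ± 3.17 in liver, 39.0% ± 2.01 in brain and 36.3% ± 1.78 in heart.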

How the data were processed

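Methylation was measured by enhanced RRBS in 24 libraries. A commercial service prepared, sequenced and mapped them with its own pipeline. Per the labels, Bismark, methylKit and mm10 were used, with no role or version stated there. The authors made tiles of 100 bp with methylKit, kept those with more than 10 reads in every library of a tissue, removed the most deeply covered tiles, and deposited 1 table per tissue with the methylation level of each tile and library as a fraction from 0 to 1. Neither reads nor coverage are in these tables, so the depth behind a level is unknown and no interval for counting error is given. A level pools all reads and CpGs of a tile. Within a tissue, replicates are libraries of separate mice by the labels. Between tissues some libraries share a mouse, while the tests treated all 24 libraries as independent.

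The 24 columns were assigned to tissues by table. Fractions were multiplied by 100 and averaged over libraries. Tile positions were checked against the reference: 99.89% of shared chromosome 2 tiles contain a CpG, against 55.19% after a shift of 100000 bp. Starts of curated RefSeq transcripts (GRCm38.p6) up to 500 bp apart were joined, each tile went to the nearest start within 1000 bp, and windows with at least 3 tiles in all tables were tested. Tissues were compared with limma 3.58.1 (R 4.3.3, lmFit and eBayes with trend) over all shared tiles or windows, with all tissues in the fit and no covariate, since the columns carry no gender, mouse or batch. For each tile or window the fit takes the same spread in every tissue, also where the SDs differ. On simulated data of 15000 tiles with 200 raised by 20 points in liver, 79.5% of the changed tiles were called between liver and brain and 77% between liver and heart, with 3 and 5 false calls. Each simulated tile had normal noise with the same SD in all tissues, and only tiles of intermediate level were raised. Among the measured tiles a far larger share was called, so these rates need not hold there. Figures were drawn with matplotlib 3.10.9.

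The tiles named are, in each promoter window, the one nearest the start and those of highest and lowest mean, and the 3 largest called differences of each comparison. Other tiles named (the boundaries of stretches, the called tiles between promoters and in the Gnasxl exon) were chosen after their values were seen. The rule named windows most like the Nespas window, which could not be tested, and Gnasxl was used in its place. The members, lists and tests were chosen with earlier results of these data known. Alternatives tried were M-values (offset 0.01), 2 tissues per fit, tiles of the 2 tables compared, 500 bp windows, CpG weights, medians, the study's limits (adjusted p of 0.01, 25 points), no minimum size and leaving out each library.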

Additional observations from a re-analysis of the deposited data

Results flagged for a closer look

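In brain and heart, the promoter windows and named tiles were screened for a library that stood apart from the other 5, with Dixon's test of the gap to the nearest library over the range at its 95% critical value, which marks about 1 group in 20 by chance. Of 46 groups, 4 were marked, all of them for a high library in heart. The 46 include the brain and heart groups of chr2:174284901-174285000, which are all at 0.0 and could not be marked. At the Nespas window 1 heart library had 29.7%, and the next had 16.8%. This rests on the tile chr2:174295501-174295600, where the same comparison gave 37.5% against 20.3%. At the Gsα start, chr2:174330001-174330100, 1 heart library had 3.7% and the next 1.0%. In the last exon of the short Nesp transcript, chr2:174337701-174337800, 1 heart library had 34.7% and the next 22.6%. The liver group, of 12 libraries, was not screened.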

How the results depend on the processing

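The counts of called locus tiles (19 between liver and brain, 22 between liver and heart and 11 between brain and heart) stayed within 1.5 times under M-values, with 2 tissues per fit, with the tiles of the 2 tables compared, and without any 1 library, where they ran from 16 to 21, 20 to 24 and 9 to 11. Under the study's limits they fell to 6, 8 and 3 of the 96 locus tiles, beside 74349, 82017 and 71809 of the 758685 shared tiles. With no minimum size the first 2 rose to 31 and 34, beside 302635 and 361381 of all shared tiles. For the promoter windows, the count stayed at 0 under M-values, 2 tissues per fit, the study's limits, 500 bp windows and without any 1 library, and no minimum size gave 2 (Nesp and exon 1A) in both comparisons with liver. Both follow from the limits themselves. With a 500 bp window exon 1A kept too few tiles for a test. The sign of the smallest window differences turned when a library was left out: brain minus heart ran from -0.113 to 2.005 points for Gnasxl and from -1.092 to 0.388 for exon 1A, and liver minus heart from -0.068 to 0.081 for Gsα. A 500 bp window moved the Nesp differences from 9.11 to 5.78 points (liver minus brain) and from 7.26 to 3.26 (liver minus heart), that of Gnasxl from 2.62 to 1.5 (liver minus brain), and the Gsα levels from 1.80, 1.33 and 1.79% to 0.90, 0.60 and 0.75%. It also moved levels by more than 1 SD at Nesp (brain 35.0%, heart 37.5%), Gnasxl (brain 42.5%) and exon 1A (heart 38.7%), as did leaving out the tile at 0 at Nesp in brain and heart. CpG weights, medians and leaving out 1 library kept each window level within 1 SD. No paired analysis was possible because the columns carry no mouse number. No other coverage minimum could be tried, since coverage is unknown, which limits how firmly levels near 0 can be read.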
